A study of Danio rerio with 18 samples.

Results

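The enhancer regions of the adult zebrafish brain were set against those of the heart at 1 year of age. Every region of the super-enhancer and typical-enhancer lists deposited for these organs was taken, 27447 regions out of 66306 in all 5 sets of the series. The brain gave 13235 regions (664 super-enhancers and 12571 typical enhancers) and the 1-year heart gave 14212 (850 and 13362). The regions were called from chromatin immunoprecipitation and sequencing (ChIP-seq) of histone H3 lysine 27 acetylation (H3K27ac) in wild-type males of the AB strain. Brains came from fish aged 10 months, with 12 brains pooled per replicate and chromatin sheared to 175 bp. Hearts of 1 year were pooled by 20 per replicate and sheared to 200 bp. Each of these sets had 2 immunoprecipitated and 2 input libraries. A further heart set, 13802 regions from 1 immunoprecipitated and 1 input library of 20 pooled hearts, shared the age of 10 months and the 175 bp fragments with the brain and was used to check the regions found in 1 organ only. Lists of the testis (10 months, 175 bp, 10015 regions) and the intestine (1 year, 200 bp, 15042 regions) were used to see where else regions were found. Each of these 2 sets also had 2 immunoprecipitated and 2 input libraries. Organ, age and fragment size changed together between the brain and the 1-year heart and cannot be told apart from these lists alone.

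Acetylation of H3K27 marks active enhancers and promoters, the stretches of DNA that switch genes on. Promoters of housekeeping genes carry it in most cells, whereas distal enhancers tend to carry it in the cells that use them. Clusters of enhancers with much of the mark, called super-enhancers, often lie near genes that give a cell its identity, and typical enhancers are the rest. The brain is built of neurons and glia, and the heart of cardiomyocytes, endothelium, epicardium, valve cells and blood. In whole organs, fewer cells with the mark and less of the mark per cell cannot be told apart. Regions are named by their position in the build Zv9. No annotation or sequence of that build was used here, so genes near the regions are not named and the organs were not checked against marker genes.

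Each list is 1 list for its organ, with no value per replicate, so no difference between organs could be tested. The depth of the libraries is unknown from these lists. Intervals after a share are exact Clopper-Pearson 95% intervals over regions. They cover counting error only, treat neighbouring regions as independent and say nothing of the spread between fish.

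About equal parts of each list were found in both organs and in 1 organ only. A region was called shared when it overlapped a region of the other list on the same chromosome by at least 50% of the shorter of the pair, and private when no region did. Of all brain regions, 5998 (45.3%) were private against the 1-year heart. Of all 1-year heart regions, 7230 (50.9%) were private against the brain. The shared remainder was 7237 brain regions and 6982 heart regions. They formed 7900 overlapping pairs, in 5262 of which each region was the only partner of the other. Up to 14 heart regions fell on 1 brain region and up to 11 brain regions on 1 heart region.

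By this rule super-enhancers were private less often than the list as a whole in both organs, and the order turned with another rule. In the brain, 137 of 664 super-enhancers (20.6%, interval 17.6 to 23.9) had no heart region, against 45.3% of all brain regions and 5861 of 12571 typical enhancers (46.6%, 45.7 to 47.5). In the 1-year heart, 114 of 850 super-enhancers (13.4%, 11.2 to 15.9) had no brain region, against 50.9% of all heart regions and 7116 of 13362 typical enhancers (53.3%, 52.4 to 54.1). Requiring 1 region of the other list to cover 50% of the counted region made 64.6% of brain super-enhancers and 57.4% of typical enhancers private. The heart shares were 69.6% and 66.9%. With all regions of the other list summed, under 50% was covered in 57.5% of brain super-enhancers and 56.8% of brain typical enhancers. In the heart this was 62.1% and 66.5%, so there the order did not turn. Requiring 50% of both regions kept the first order, with 70.8% against 82.6% in the brain and 72.5% against 84.0% in the heart. Most private regions had no base pair in the other list at all, 115 of the 137 brain and 100 of the 114 heart super-enhancers, and 5512 and 6775 of the typical enhancers. Super-enhancers are the long regions of each list, and the shares at like length are given further on.

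Most super-enhancers that were shared by this rule had partners of the other class alone, and this too depended on the rule. In the brain 180 of 664 (27.1%) met a super-enhancer of the 1-year heart and 347 (52.3%, 48.4 to 56.1) met typical enhancers alone. In the heart 175 of 850 (20.6%) met a super-enhancer of the brain and 561 (66.0%, 62.7 to 69.2) typical enhancers alone. Requiring 50% of the counted region left 162 brain super-enhancers with a super-enhancer and 73 with typical enhancers alone, and 146 and 112 in the heart. Requiring 50% of both regions left 125 and 69 brain super-enhancers of these kinds, while the heart had 125 and 109. Under both of these rules most of the super-enhancers that stayed shared kept their class. Each rule asks 1 partner to cover 50% of the super-enhancer, which a short typical enhancer cannot do. This result was thus likely from the outset. Summed over all regions of the other list, 50% or more was covered in 175 of the 180 brain super-enhancers and 107 of the 347. In the heart it was 160 of the 175 and 162 of the 561. A match to a super-enhancer of the other organ was found for 10.0% of all brain regions and 6.14% of all heart regions. In the other direction, 1150 brain typical enhancers lay on 615 heart super-enhancers, with a median of 2 and at most 10 on each. On 387 brain super-enhancers lay 698 heart typical enhancers, with a median of 1 and at most 12. In 61.3% of brain typical enhancers the deposited signal was not a multiple of the region's own length, as against 4.97% of brain super-enhancers and none of the 1-year heart regions. Whether their class depends on it was not tested.

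**Figure D1:**
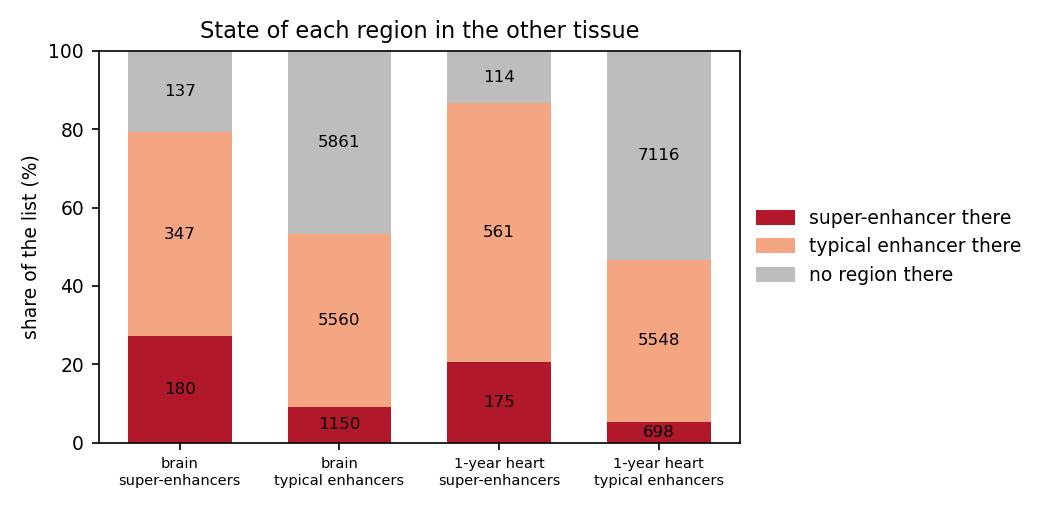
Share of each list (%, vertical axis) by the state of its regions in the other organ, for brain and 1-year heart super-enhancers and typical enhancers, with the number of regions written in each block. The grey blocks, regions with no match, fill 20.6% and 13.4% of the super-enhancer bars and 46.6% and 53.3% of the typical-enhancer bars.

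A change of class often meant that little of the super-enhancer lay in called regions of the other organ. The 347 brain super-enhancers matched by typical enhancers alone had a median length of 68.8 kb, while their longest heart partner had a median of 15.0 kb. A single partner accounted for 172 of them, and in 98 the longest partner was under 5 kb. At the median 29.7% of the base pairs of these super-enhancers lay in heart regions (quartiles 8.49% and 56.3%), and in 92 of the 347 it was under 10%. The 561 heart super-enhancers of the same kind had 28.3% of their base pairs in brain regions at the median (8.92% and 55.8%), with 150 under 10%. Where super-enhancer met super-enhancer, the covered share was far higher, 96.3% at the median for the brain regions and 81.9% for the heart regions. The matching rule counts overlap against the shorter region, so a match of long regions needs a long overlap. A short typical enhancer can meet the rule while covering little of a super-enhancer. A contrast in this direction was thus likely from the outset, and no difference between the organs is drawn from it. Counting as private every super-enhancer with under 10% of its base pairs in the other organ gave 216 in the brain (32.5%) and 252 in the heart (29.6%), a rule chosen after the values were seen.

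**Figure D2:**
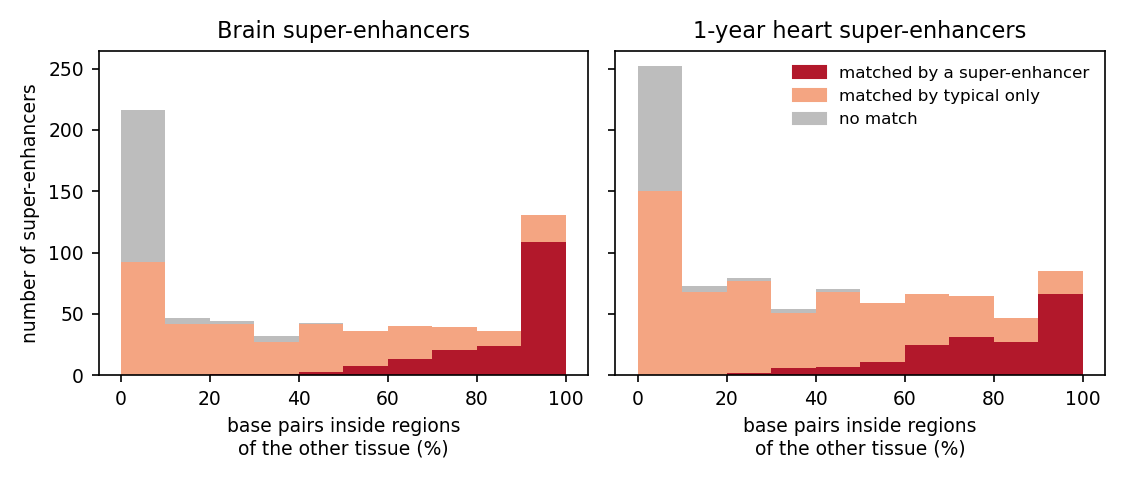
Number of super-enhancers (vertical axis) by the percentage of their base pairs inside regions of the other organ (horizontal axis, steps of 10), for the brain on the left and the 1-year heart on the right, coloured by the kind of match. Counts are highest at the ends in the brain, 216 under 10% and 131 at 90% or more, while the heart has 252 under 10% and 85 at 90% or more.

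The longest brain super-enhancer shows how thin such a match can be. It lay on chromosome 22 from 19986401 to 20330799 and joined 54 loci over 344 kb. It counted as a typical enhancer in the 1-year heart, yet 0.464% of its base pairs lay in a heart region. The 10-month heart and the testis had no region there, and the intestine had a typical enhancer. The next brain super-enhancers with typical partners alone were more evenly covered. Chromosome 20 from 38895401 to 39124999 (230 kb, 23 loci) had 25.2% of its base pairs in 1-year heart regions and 11.4% in 10-month heart regions. Chromosome 12 from 27755201 to 27970999 (216 kb, 18 loci) had 22.4% and 15.7%. Chromosome 25 from 5680001 to 5889799 (210 kb, 42 loci) had 29.1% and 11.2%. Chromosome 8 from 18075601 to 18274399 (199 kb, 17 loci) had 42.2% and 15.0%. In all 4 of these the covered share was lower in the younger heart, whose list covers fewer base pairs, 133 Mb against 213 Mb.

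Among the heart super-enhancers with typical partners alone, the longest was also the longest region of its list, on chromosome 13 from 25058001 to 25413599 (356 kb, 51 loci). Brain regions held 36.9% of its base pairs and 10-month heart regions 67.8%, and it was a super-enhancer in the 10-month heart, the intestine and the testis. Chromosome 12 from 38796801 to 39073599 (277 kb, 36 loci) had 7.44% of its base pairs in brain regions and 57.4% in those of the 10-month heart. Chromosome 25 from 617801 to 869999 (252 kb, 38 loci) had 45.5% and 59.1%. Chromosome 23 from 28019001 to 28262799 (244 kb, 33 loci) had 29.6% and 69.5%. Of the 5, only chromosome 11 from 8502401 to 8744399 (242 kb, 34 loci) had more of its base pairs in the brain, 56.6% against 38.9%, and it was a typical enhancer in the 10-month heart, while the 4 longer ones were super-enhancers there.

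The super-enhancers that met a super-enhancer of the other organ formed 183 pairs, none with the same start and end. The heart region was the longer of the pair in 113 (61.7%). Heart super-enhancers were also longer over the whole lists, with medians of 75.5 kb in the heart and 67.0 kb in the brain. The base pairs in both regions, as a percentage of those in either, had a median of 60.7% (quartiles 40.5% and 76.8%), and the median overlap was 59.2 kb. The longest overlap, 239 kb, was on chromosome 23, where the whole brain region from 22973801 to 23213199 lay inside the heart region from 22941001 to 23214999 (274 kb). On chromosome 18 the regions nearly coincided, from 17440801 to 17651599 in the brain and from 17441601 to 17651399 in the heart, so that 99.5% of the base pairs in either were in both. On chromosome 1 the heart region from 40731201 to 40924199 (193 kb, 11 loci) lay inside the brain region from 40724001 to 40966399 (242 kb, 10 loci). On chromosome 3 the brain region from 22882601 to 23074599 and the heart region from 22877001 to 23072999 had 96.4% in common. On chromosome 12 the brain region from 9393401 to 9572599 (179 kb) was 64.3% of the heart region from 9351601 to 9630199 (279 kb). In 4 of these 5 pairs both regions were super-enhancers in the 10-month heart. The pair on chromosome 3 was the exception, a typical enhancer there, with 34.5% of the brain region and 36.6% of the 1-year heart region inside 10-month heart regions.

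Brain super-enhancers without any heart partner included some of the longest regions of the brain list. Their median length was 58.2 kb (quartiles 37.4 and 85.4 kb), against 69.0 kb for those with a heart region, and they joined a median of 8 loci, against 9. The longest 10 were 133 to 296 kb long. Chromosome 12 from 25849601 to 26145399 led them (296 kb, 30 loci), with the nearest 1-year heart region 138 kb away and no region in the 10-month heart, the testis or the intestine. Second was chromosome 6 from 36897201 to 37145799 (249 kb, 38 loci). It was followed by chromosome 14 from 33079601 to 33275799 (196 kb, 32 loci). The fourth was chromosome 11 from 31667601 to 31841399 (174 kb) and the fifth chromosome 3 from 37328601 to 37500199 (172 kb). These 5 had no base pair in a 1-year heart region.

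In the 10-month heart these 10 regions were also nearly free of called regions. The regions on chromosomes 12 and 3 just named, chromosome 8 from 16518601 to 16667399 (149 kb) had no 10-month heart region at all. Nor had chromosome 22 from 36639001 to 36774199 (135 kb), which stood 494 kb from the nearest 1-year heart region. The other 6 counted as typical enhancers in the 10-month heart, but the covered part was small. It was 0.804% of the region on chromosome 6, 2.34% on chromosome 14 and 0.690% on chromosome 11. It was 5.36% on chromosome 1 from 14566601 to 14704599 (138 kb) and 0.599% on chromosome 18 from 43520201 to 43653599 (133 kb). On chromosome 19 from 25631801 to 25789199 (157 kb) it was 11.4%, and there 3.81% lay in 1-year heart regions too. In this group of 10 the 10-month heart thus covered at most 11.4% of a region. The 10 were picked for having no match in the 1-year heart list. That list holds 112 of the 133 Mb of the 10-month heart list, so little cover was likely from the outset.

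Private super-enhancers of the 1-year heart were shorter than the others of that list, and the longest were also shorter than those of the brain. Their median was 62.0 kb (45.2 to 82.5 kb) and 9 loci, against 78.4 kb and 12 loci for heart super-enhancers with a brain region. The longest 10 were 103 to 148 kb long. The first was chromosome 16 from 6524601 to 6672599 (148 kb, 20 loci), a super-enhancer in the 10-month heart with 52.8% of its base pairs inside regions there, and a super-enhancer in the intestine. Chromosome 8 from 50524201 to 50663999 (140 kb, 21 loci) had 13.4% of its base pairs in the 10-month heart, chromosome 5 from 68701001 to 68834599 (134 kb) had 51.5%, and chromosome 5 from 37141001 to 37268999 (128 kb) had 46.1%. Chromosome 14 from 15270601 to 15393599 (123 kb, 25 loci) had the most among the 10, 62.3%. Chromosome 12 from 24822801 to 24945599 (123 kb) had 28.8%, and chromosome 5 from 16480801 to 16594399 (114 kb) had the least, 12.3%. Chromosome 2 from 453601 to 564599 (111 kb) had 31.0%, while chromosome 16 from 45279601 to 45390399 (111 kb) had 42.1%. The shortest of the 10, chromosome 18 from 48132801 to 48235999 (103 kb), had 47.9%. All 10 had a region in the 10-month heart, 3 of them a super-enhancer, and 8 of the 10 had no base pair in a brain region.

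Over all regions, what was private to the brain against the older heart was mostly private against the younger heart too. Of 5998 private brain regions, 5424 (90.4%, 89.7 to 91.2) had no 10-month heart region either. The share among all brain regions was 51.7%, and among brain regions shared with the 1-year heart it was 19.6% (1416 of 7237). Of the 133 Mb of the 10-month heart list, 112 Mb lay inside the 1-year heart list. Outside that list it had 16.0 Mb beyond the brain and 4.92 Mb within it. Regions picked for lacking a 1-year heart region thus had little of it left to meet, and a high share was likely from the outset. The 10-month heart list also rests on 1 immunoprecipitated library. Of the private brain typical enhancers 5331 of 5861 (91.0%) stayed private. Of the 137 private brain super-enhancers 93 (67.9%, 59.4 to 75.6) stayed private, 43 met typical enhancers and 1 met a super-enhancer. The 44 that met a 10-month heart region had a median of 5.44% of their base pairs covered there, so most of these matches took up a small part of the brain region. The single region that was a super-enhancer in the younger heart lay on chromosome 7 from 27886601 to 27912599 (26.0 kb), with 83.8% of its base pairs in the 10-month heart and 34.6% in the 1-year heart. It was named because it is the only case.

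The 530 private brain typical enhancers with a 10-month heart region were longer than the 5331 without, with medians of 7.0 and 2.60 kb. Long regions meet another region more easily under this rule. The longest private typical enhancers of the brain were 93.8 to 130 kb, as long as many super-enhancers. Chromosome 6 from 35178201 to 35307999 (130 kb, 21 loci) had no region in any of the 4 other lists. Neither had chromosome 25 from 25639201 to 25738799 (99.6 kb, 11 loci), which stood 207 kb from the nearest 1-year heart region. Chromosome 23 from 8974201 to 9093199 (119 kb) was absent from both hearts and had a typical enhancer in the testis. In the 10-month heart lay 2.01% of the base pairs of chromosome 3 from 30485001 to 30604399 (119 kb). For chromosome 6 from 53606401 to 53700199 (93.8 kb) it was 1.70%.

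On the heart side, every private super-enhancer and part of the private typical enhancers had a region in the 10-month heart. All 114 private heart super-enhancers had a region in the 10-month heart (lower bound of the interval 96.8%), 56 of them a super-enhancer and 58 a typical enhancer. In the 10-month heart list 20.8% of super-enhancers and 74.2% of typical enhancers carried a signal that was not a multiple of their own length, and whether their class depends on it was not tested. Having a 10-month heart region is not particular to the private super-enhancers, since only 1 of all 850 heart super-enhancers lacked a 10-month heart region. Among private heart typical enhancers 3904 of 7116 (54.9%, 53.7 to 56.0) were found in the younger heart, as against 5046 of 6246 (80.8%) of those shared with the brain. For the whole list, 31.1% of 1-year heart regions had no 10-month heart region. The share of private heart regions of both classes found at 10 months was 55.6% (4018 of 7230) and depended on the rule. It was 36.2% of 9528 with 50% of the counted region required and 29.8% of 11834 with 50% of both regions. With own signal only it was 19.1% of 10609, a setting that also removes 71.3% of the 10-month heart list. Each setting thus changed the set of private regions itself, and the number found at 10 months was 3449, 3529 and 2024 in this order. The 3212 private typical enhancers that the younger heart lacked were short, with a median of 2.20 kb and a longest of 42.0 kb, against 5.40 kb and 141 kb for those it had. Here too the rule matches long regions more easily than short ones.

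The longest private typical enhancer of the heart lay on chromosome 11 from 22861201 to 23002599 (141 kb, 23 loci), with 26.6% of its base pairs in the 10-month heart. It was followed by chromosome 16 from 38024401 to 38129799 (105 kb), also with 26.6%, and by chromosome 12 from 38443001 to 38538199 (95.2 kb) with 10.1%. Chromosome 7 from 14890601 to 14984399 (93.8 kb) had 65.2% and lay 1.80 kb from a brain region. Chromosome 16 from 35966801 to 36054399 (87.6 kb) was a super-enhancer in the 10-month heart, with 40.2% of its base pairs covered. None of these 5 had a base pair in the brain list, and all had an intestine region.

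Set directly against the 10-month heart, the brain had a similar share of super-enhancers without a match. There were 131 of 664 brain super-enhancers without a 10-month heart region (19.7%, 16.8 to 23.0), next to 137 against the 1-year heart. Brain typical enhancers were private in 53.4% (6709 of 12571), above the 46.6% found against the 1-year heart, and the younger heart list covers fewer base pairs. Brain super-enhancers that met a super-enhancer numbered 142 (21.4%, 18.3 to 24.7) in the 10-month heart and 180 (27.1%, 23.8 to 30.7) in the 1-year heart. Of the length of brain super-enhancers, 29.3% lay in 10-month heart regions and 41.7% in 1-year heart regions. Seen from the heart, 126 of 749 super-enhancers at 10 months (16.8%) and 114 of 850 at 1 year (13.4%) had no brain region. Both sets of values share the brain list.

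Base pairs give the comparison without a rule for what counts as shared, though they include the gaps between joined loci. Brain regions covered 171 Mb and 1-year heart regions 213 Mb, with 72.5 Mb in both. The shared part was 42.4% of the brain list and 34.1% of the heart list. In the brain the classes were alike, since heart regions held 41.7% of the length of super-enhancers and 42.6% of that of typical enhancers. In the heart they were not, with 39.3% of the length of super-enhancers in brain regions and 31.3% of that of typical enhancers. Super-enhancers of the brain thus met heart regions more often than typical enhancers did, but no larger part of their length was covered. The base pairs in both lists were 23.3% of those in either for all regions, 11.0% for super-enhancers alone and 15.4% for typical enhancers alone. The values by class leave out overlap between the classes. Such overlap was 16.5 Mb of brain typical enhancers in heart super-enhancers and 8.96 Mb of brain super-enhancers in heart typical enhancers.

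With the 10-month heart added, the 3 lists together covered 327 Mb. Brain regions alone held 93.7 Mb (28.6%), the 1-year heart alone 76.3 Mb (23.3%), both hearts without the brain 64.0 Mb (19.6%) and all 3 lists 47.7 Mb (14.6%). Of the brain base pairs outside the 1-year heart, 4.99% lay in the 10-month heart, so 54.8% of all brain base pairs were in neither heart. Of the 1-year heart base pairs outside the brain, 45.6% lay in the 10-month heart. Of those inside the brain, 65.8% did.

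Length went with being private in both organs. The median private brain region was 3.0 kb and the median shared one 5.40 kb. In the heart the values were 3.2 and 8.60 kb. Among typical enhancers under 2 kb, 54.4% were private in the brain and 59.9% in the heart. From 2 to 5 kb the shares were 48.4% and 60.8%, so the heart share did not fall there. From 5 to 20 kb they were 45.0% and 51.6%, and at 20 kb or more 28.5% and 32.2%. Covered base pairs moved less with length. In the brain they ran from 41.5% to 44.4% over the 4 length classes of typical enhancers, and in the heart from 38.1% under 2 kb to 30.4% at 20 kb or more.

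At like length the classes stood closer in the brain than in the heart. In the undivided class of 20 kb or more, 20.0% of brain super-enhancers (17.0 to 23.4) and 28.5% of typical enhancers (26.4 to 30.6) were private. The heart shares there were 13.3% (11.1 to 15.8) and 32.2% (30.3 to 34.2). Neither pair of intervals overlapped, but super-enhancers were longer, with brain medians of 68.9 and 31.2 kb. From 5 to 20 kb, 33.3% of 30 brain and 20% of 15 heart super-enhancers were private. Between 20 and 50 kb, 27.2% of brain super-enhancers (20.7 to 34.6) and 30.2% of brain typical enhancers (27.9 to 32.6) were private. Between 50 and 100 kb the brain shares were 17.1% (13.1 to 21.8) and 19.2% (14.7 to 24.4). Their intervals overlapped in both classes. In the heart, 22.3% of super-enhancers (16.2 to 29.4) and 33.6% of typical enhancers (31.5 to 35.8) were private between 20 and 50 kb. Between 50 and 100 kb the heart shares were 14.8% (11.6 to 18.6) and 25.8% (21.3 to 30.8). These intervals did not overlap, whereas at 100 kb or more those of the heart did, with 4.78% (2.49 to 8.20) of 251 super-enhancers and 10% (1.23 to 31.7) of 20 typical enhancers. Within a class super-enhancers were still longer, for example 38.4 against 29.0 kb at the median of the brain regions of 20 to 50 kb, and the split above 20 kb was chosen after the values were seen.

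**Figure D3:**
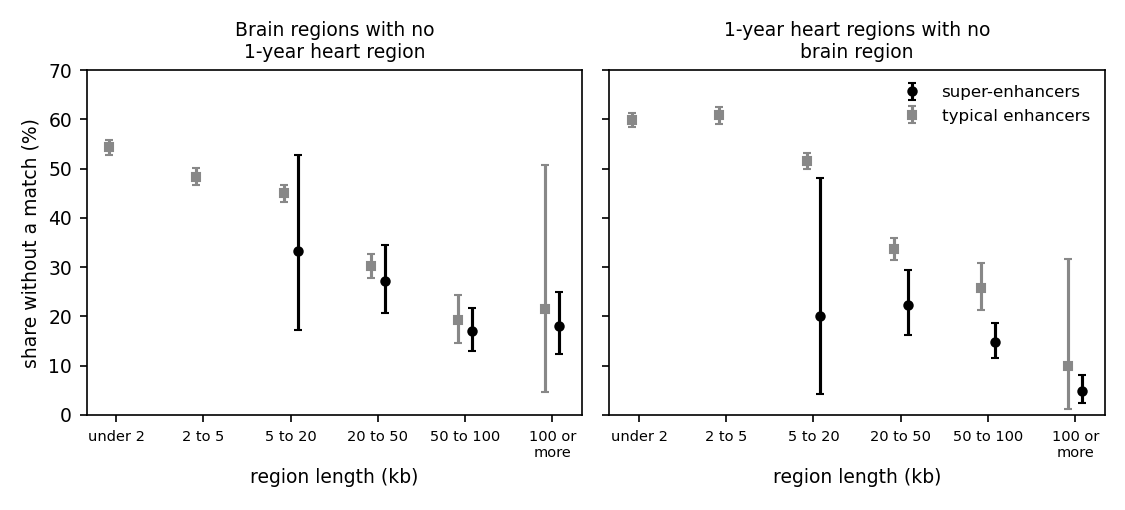
Share of regions without a match in the other organ (%, vertical axis) by region length (kb, horizontal axis), for brain regions on the left and 1-year heart regions on the right. Black circles are super-enhancers, grey squares typical enhancers and bars exact 95% intervals over regions. Shares for brain typical enhancers are 54.4% under 2 kb, 19.2% at 50 to 100 kb and 21.4% of 14 regions at 100 kb or more. Those for heart typical enhancers are 59.9% under 2 kb, 60.8% at 2 to 5 kb and 25.8% at 50 to 100 kb. At 100 kb or more the heart share is 10% of 20 regions.

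Signal per base pair, compared within a list only, differed little between private and shared regions. Heart super-enhancers at 1 year that met a brain super-enhancer had a median of 0.509 signal units per bp, next to 0.474 in those that met typical enhancers and 0.469 in private ones. Heart typical enhancers had medians of 0.449, 0.490 and 0.474 in the same order. Among brain super-enhancers with a signal of their own the medians were 0.504, 0.467 and 0.460. In both organs the super-enhancers that met a super-enhancer had the highest median of the 3 super-enhancer groups. Their lower quartiles, 0.444 in the heart and 0.450 in the brain, lay below the medians of the other 2 groups, so the distributions overlapped widely. Brain typical enhancers are not compared in signal, since 61.3% carry a signal that is not their own.

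Private regions were spread over all 25 chromosomes. In the brain their share ran from 33.7% on chromosome 22 to 55.8% on chromosome 14, with a median of 45.0%. In the heart it ran from 43.2% on chromosome 4 to 58.0% on chromosome 13, with a median of 50.7%. On most chromosomes the heart share was the higher, and on 4 it was the brain share. These 4 were chromosome 1 (52.4% in the brain and 50.7% in the heart), chromosome 2 (51.3% and 50.1%), chromosome 4 (43.9% and 43.2%) and chromosome 14 (55.8% and 52.1%). Chromosome 22 was also the most alike in base pairs, with 30.0% of the base pairs of either list in both, and chromosome 6 the least, with 19.2%.

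Each chromosome carried at least 3 private brain super-enhancers, and at most 10, on chromosomes 7 and 8. Private heart super-enhancers were found on 24 of 25 chromosomes. Chromosomes 2 and 7 had the most, 9 each, and chromosome 22 had 0 of 24. The long arm of chromosome 4 is known in zebrafish as gene-poor heterochromatin. Chromosome 4 was the only one on which brain regions covered more base pairs than heart regions, 6.47 against 6.04 Mb. Its arms were not compared, and a link with the long arm was not tested. The ratio was lowest on chromosome 12, 0.641, where brain regions covered 5.97 Mb and heart regions 9.31 Mb. The check against the younger heart was even across chromosomes. Between 87.0% (chromosome 13) and 93.9% (chromosome 24) of private brain regions were absent from the 10-month heart too, and between 47.9% (chromosome 16) and 60.3% (chromosome 23) of private heart regions were present there.

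**Figure D4:**
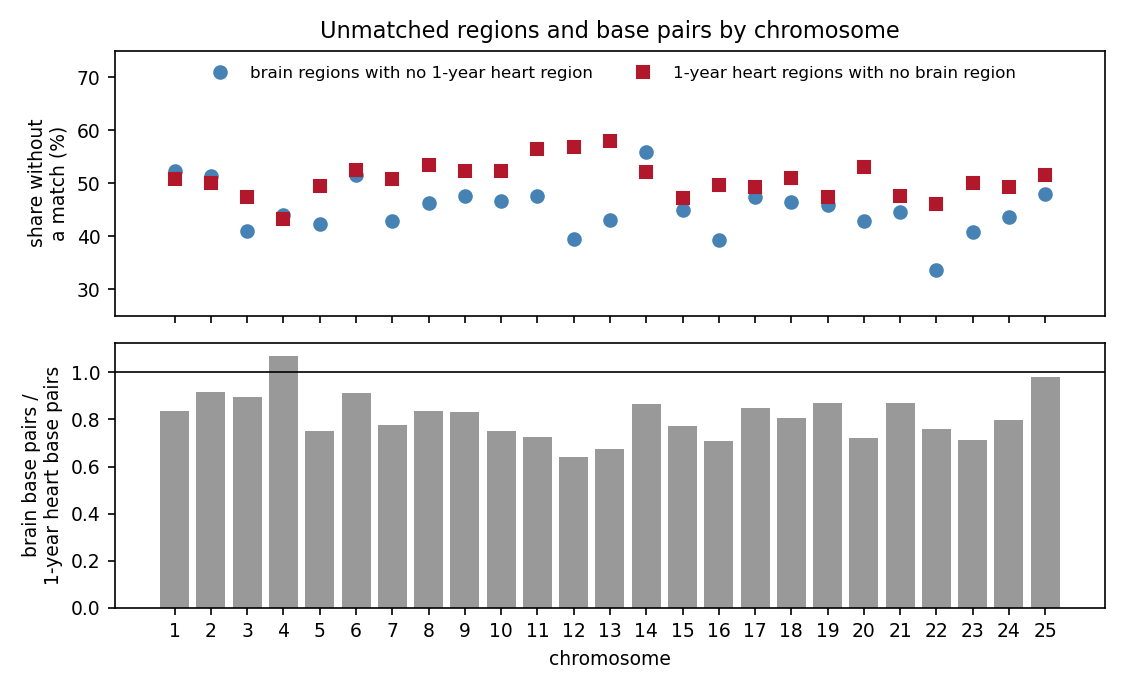
Upper panel, share of regions without a match (%, vertical axis from 25 to 75) on each of the 25 chromosomes, with blue circles for brain and red squares for 1-year heart regions. Lower panel, brain base pairs divided by 1-year heart base pairs, with a line at 1. The brain share ranges from 33.7% to 55.8%, the heart share from 43.2% to 58.0%, and only the bar of chromosome 4 passes the line.

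Private regions lay singly or one after another. Whether runs of them were more frequent than the order of regions alone would give was not tested. Taking only regions with no base pair in the other list, brain regions formed 3030 stretches between neighbouring 1-year heart regions, and 1889 of these held a single region, while 187 held 5 or more and 24 held 10 or more, up to 20. The heart formed 3640 stretches, of which 2166 held a single region, 248 held 5 or more and 19 held 10 or more, up to 18. The median distance to the nearest region of the other list was 39.6 kb for brain regions and 37.8 kb for heart regions, and it passed 100 kb for 21.7% and 18.5%. For super-enhancers alone the medians were 43.8 kb in the brain and 38.7 kb in the heart.

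The stretches named next are among those with the largest summed length, but not all of these are described. They were chosen after their values were seen. In the brain the first was on chromosome 2 from 33863601 to 34544199, where 11 regions added up to 356 kb, 1 of them a super-enhancer, in a gap of 739 kb between 1-year heart regions. The 10-month heart lacked 10 of these 11, and 10 had a region in neither testis nor intestine. On chromosome 16 from 53807201 to 54375399 another 11 brain regions, all typical enhancers, added up to 300 kb and were all absent from the 10-month heart. On chromosome 15 from 17321001 to 18108399 the brain had 13 regions of 236 kb in sum, all absent from the 10-month heart. In the heart the first was on chromosome 8 from 38663801 to 39576599, where 14 typical enhancers added up to 294 kb in a gap of 1149 kb between brain regions, and 10 of them had a region in the 10-month heart. On chromosome 2 from 412201 to 682999 the heart had 3 regions of 228 kb in sum, 2 of them super-enhancers, and all 3 were found in the 10-month heart. Passed over in the brain were chromosome 12 (300 kb, 4 of 4 regions absent from the 10-month heart), chromosome 6 (285 kb, 4 of 5) and chromosome 21 (248 kb, 14 of 15). Passed over in the heart were another stretch on chromosome 8 (279 kb, 3 of 7 found in the 10-month heart) and chromosome 18 (249 kb, 6 of 7).

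**Figure D5:**
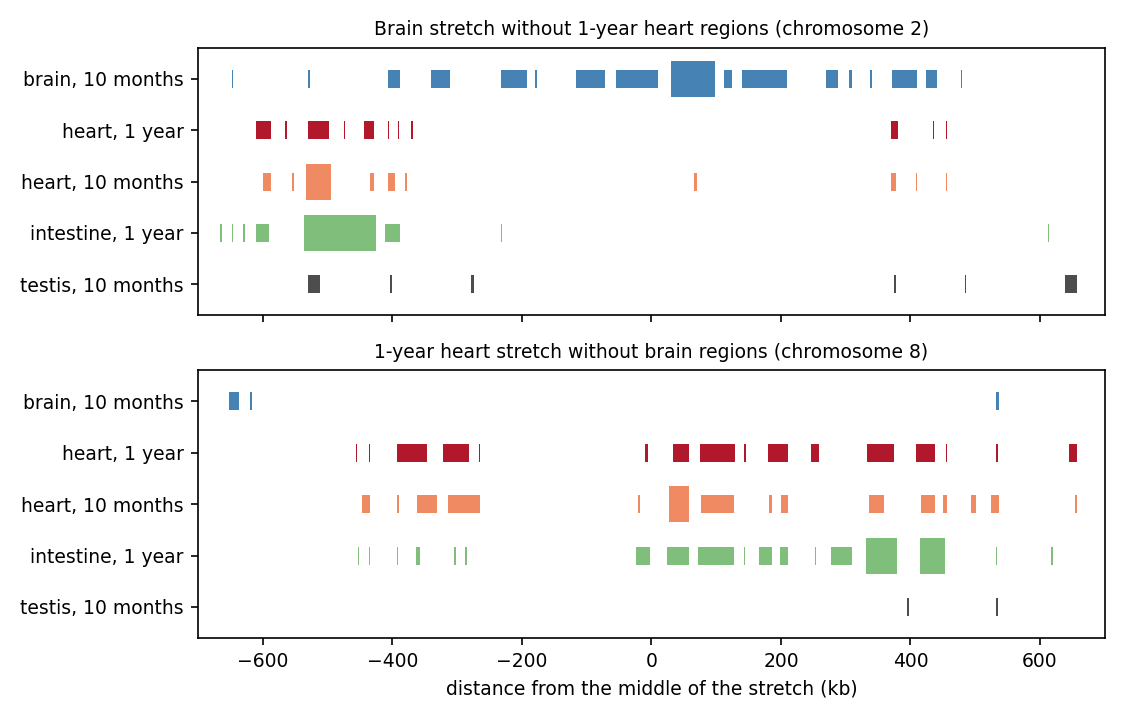
Regions of the 5 lists (rows) around the middle of the brain stretch on chromosome 2 (upper panel) and of the 1-year heart stretch on chromosome 8 (lower panel), by distance from the middle in kb. Tall bars are super-enhancers and low bars typical enhancers. In the upper gap the brain has 356 kb of regions, the 1-year heart none and the 10-month heart a single one. In the lower gap the brain has none, while both hearts and the intestine have regions and the testis has a typical enhancer.

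Regions private within this pair of organs differed in where else they were found. Of the 114 private heart super-enhancers, 109 (95.6%) had a region in the 1-year intestine and 74 (64.9%) in the testis. Over all 850 heart super-enhancers the shares were 99.1% and 78.8%, both above those of the private ones. Private heart typical enhancers had an intestine region in 3848 of 7116 cases (54.1%), against 65.1% of all heart typical enhancers. Of the 137 private brain super-enhancers, 42 (30.7%) had an intestine region and 60 (43.8%) a testis region, and 56 had neither. Of all brain super-enhancers, 76.5% had an intestine region and 66.7% a testis region, both above the shares of the private ones. Private brain typical enhancers had neither in 4504 of 5861 cases (76.8%), against 45.2% of all brain typical enhancers and 13.3% of all brain super-enhancers. Private brain regions were picked for lacking a 1-year heart region, and 58.8% of the base pairs of that heart list lay in intestine regions. A low intestine share among them was thus likely from the outset. The same limit applies to private heart regions, since 35.7% of brain base pairs lay in intestine regions. The intestine shares age and fragment size with the 1-year heart, and the testis shares them with the brain. The part of these in the counts was not tested.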

How the data were processed

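H3K27ac ChIP-seq regions of brain (10 months) and heart (1 year), and of heart at 10 months as a check, were analysed as deposited. Per the submitters' processing notes, CASAVA, Bowtie2 2.1.0, SAMtools 0.1.8, bedtools 2.24.0, SICER 1.1 and build Zv9 were used, without roles or order. The joining of loci, the super-enhancer threshold, the use of input and the combination of replicates are, like the depth, not given in the sources used. The value deposited by the authors with each region is a signal over the region, never negative, with no stated scaling between lists. It was called a region's own when 10000 times the signal was a whole multiple of its length. All regions were kept.

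Length is end minus start as deposited, and starts are printed 1-based. Overlaps, shares and intervals were computed with Python 3.11.15, numpy 2.4.6, pandas 2.3.3 and scipy 1.17.1, and drawn with matplotlib 3.10.9. The overlap step was tested on simulated lists. Regions named are the longest 10 private super-enhancers per list, the longest 5 private typical enhancers, the longest 5 super-enhancers with typical partners alone and the 5 longest overlaps of super-enhancers. Others are said to be chosen after their values. These rules, and the regions compared, were chosen with earlier results of these data known. Gene lists were not used, as no Zv9 annotation was at hand. Groups came from sample titles.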

Additional observations from a re-analysis of the deposited data

How the results depend on the processing

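In all, 10 counts of private, shared and class-changed regions were recomputed. All stayed within 1.5 times with an overlap of 1 bp, with regions of at least 1000 bp only, and without chromosome 4. Requiring 50% of both regions gave 470 brain and 616 heart super-enhancers that were private, 10387 and 11218 private typical enhancers, 69 and 109 super-enhancers with typical partners alone, and 9933 brain regions absent from both hearts. This rule cannot match a long region with a short one. Under the rule of 50% of the counted region, 1 region of the other list had to cover that part. It gave 429 and 592 private super-enhancers and 73 and 112 with typical partners alone. With the upper 75% of each super-enhancer list, 84 of 498 brain and 69 of 638 heart super-enhancers were private, from shorter lists. With own signal only, which removes 61.3% of brain and 74.2% of 10-month heart typical enhancers, 319 of 850 heart super-enhancers (37.5%) were private. That share was 13.4% with all brain regions kept as partners. Of the 4865 brain typical enhancers left, 2140 were private (44.0%, next to 46.6% of the whole list). Typical partners alone were met by 363 heart super-enhancers (42.7%). In this setting 2196 of 2267 private brain regions were also absent from the 10-month heart, and 2024 of 10609 private heart regions (19.1%) were found there. With under 10% of own base pairs as the rule, added after seeing the data, 216 brain and 252 heart super-enhancers were private. The base pairs in both lists, 23.3% of those in either, were 11.0% for super-enhancers alone and 15.4% for typical enhancers alone. These 2 values leave out overlap between the classes.

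No paired analysis was possible because each list holds 1 value per region for the organ and none per replicate, so leaving out a replicate was not run either. Depth is unknown and sets no stated limit here.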

Other observations

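The region with the highest signal per bp of the whole 1-year heart list was a private super-enhancer, on chromosome 5 from 3724001 to 3734199. It was 10.2 kb long, joined from a single locus, and carried 3.24 signal units per bp, against a median of 0.469 in private heart super-enhancers and at most 2.42 in heart typical enhancers. It lay wholly inside regions of the 10-month heart and was a super-enhancer there and in the intestine. Brain regions held 9.80% of its base pairs. In the brain the private super-enhancer with the highest signal per bp of its own lay on chromosome 10 from 43345601 to 43354199. It was 8.60 kb long with 1.68 signal units per bp, 6.40 kb from a 1-year heart region, absent from the 10-month heart and a super-enhancer in the intestine. The next, on chromosome 7 from 51741601 to 51750599 (9.0 kb, 1.12 signal units per bp), had no region in any of the 4 other lists.

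Of the 527 brain super-enhancers shared with the 1-year heart, 38 had no 10-month heart region, and 37 of these met typical enhancers at 1 year. There was 1 brain super-enhancer with a 1-year heart super-enhancer and no 10-month match, on chromosome 13 from 22420801 to 22515799 (95 kb), and even there 36.8% of the base pairs lay in 10-month heart regions that were matched by less than 50% of the shorter. The single 1-year heart super-enhancer without a 10-month heart region, on chromosome 3 from 34827401 to 34839999 (12.6 kb), had 95.2% of its base pairs in brain regions and was matched by typical enhancers there. All regions in these paragraphs were chosen after their values were seen.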
